A study of Mus musculus with 30 samples.

Results

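Neurons sorted magnetically from the nucleus accumbens of saline-injected mice were compared with nucleus accumbens tissue of saline-injected mice, on 5 bead arrays per preparation. These were the arrays whose titles name saline-injected neurons or saline-injected tissue, 10 of the 30 arrays of the series. The mice were of the C57BL/6J strain, received saline, and were sampled 4 h later, and each array held RNA of a single mouse. The other 20 arrays held sorted astrocytes under saline, and neurons, tissue and astrocytes from mice given dexamethasone, a glucocorticoid receptor agonist, at 4 mg/kg. The dexamethasone arrays of neurons and tissue serve below as a second set of mice for the same contrast. The surface marker or kit of the sort, and the age and sex of the mice, were not available for this work. All values are normalized intensities on the log2 scale, so that a difference of 1 is a factor of 2, and a gene was called when its adjusted p in limma was under 0.05.

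The nucleus accumbens is the ventral part of the striatum. Most of its neurons are GABAergic medium spiny projection neurons, which form a direct pathway class with the D1 dopamine receptor, dynorphin and substance P and an indirect pathway class with the D2 receptor and enkephalin. Cholinergic interneurons and GABAergic interneurons with parvalbumin, somatostatin with neuropeptide Y, or calretinin make up small shares of the neurons, and glutamatergic cell bodies lie outside the nucleus. Newborn neurons that express doublecortin migrate from the neighbouring ventricular wall toward the olfactory bulb. The comparison shows which of these classes were relatively stronger or weaker in the sorted samples than in samples of nucleus accumbens tissue. In such bulk samples fewer cells of a type and less RNA per cell cannot be told apart.

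Sorted neurons and tissue differed at 3562 of 13228 genes tested (26.9%), of which 1464 (11.1%) were higher in neurons and 2098 (15.9%) lower. Of the calls, 3355 had the same sign on all 5 chips, a chip being the slide that held 1 array of every group. At least a 2-fold difference was reached by 424 of the higher and 932 of the lower genes, and at least a 4-fold difference by 72 and 195. The shares of 11.1% called higher and 15.9% called lower are the background for every count of called list members below. The median difference over all genes was 0.00. With median scaling in place of quantile normalization that median was -0.13, and 22.9% of the calls were higher in place of 41.1%. Correlations between arrays lay at 0.968 to 0.981 within neurons, 0.970 to 0.985 within tissue and 0.921 to 0.949 between them. Between 37.6% and 42.4% of probes were detected on the neuron arrays and between 41.8% and 44.8% on the tissue arrays. Neurons sat at one fixed position of every chip and tissue at another, so position and preparation cannot be told apart.

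The neuron label was checked against markers. The mean level of 17 measured general neuron genes lay between 11.99 and 12.19 on the neuron arrays and between 9.73 and 10.45 on the saline astrocyte arrays. On the tissue arrays it lay between 12.29 and 12.47, above all neuron arrays. Microglia genes averaged 6.17 to 6.35 in neurons and 9.41 to 9.65 in tissue. Astrocyte genes averaged 8.80 to 9.81 in neurons and 10.95 to 11.22 in tissue, and oligodendrocyte genes 10.39 to 11.25 and 12.50 to 12.59. Glial transcripts were thus lower in the sorted sample, and those of astrocytes and oligodendrocytes remained detectable there.

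Medium spiny neuron genes were higher in sorted neurons. Of 22 tested members of the list shared by both pathways, 16 were called higher and 0 lower, with a median difference of 0.89, against 11.1% called higher and a median of 0.00 over all genes. All 22 differences were above 0, from 0.20 to 1.46, and 17 members did not overlap between the groups, where 9.37% of all genes lay above tissue on every array. Foxp1, a forkhead transcription factor of striatal projection neurons, measured 11.21, 10.93, 10.86, 10.75 and 10.76 on the 5 neuron arrays. In tissue it measured 9.64, 9.78, 9.72, 9.70 and 9.68. The groups lay clearly apart, with a difference of 1.20 ± 0.19 (SE, adjusted p = 2.39e-04) that was 0.77 ± 0.31 under dexamethasone (adjusted p = 0.0798). Further large differences were those of Rxrg, a retinoid receptor (1.46 ± 0.47), Rasgrp2, an activator of Rap signalling (1.15 ± 0.25), Actn2, an actin crosslinker (1.15 ± 0.27), Scn4b, a sodium channel subunit (1.13 ± 0.38), the phosphodiesterase Pde10a (1.04 ± 0.34) and Syndig1l (1.02 ± 0.35).

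Smaller differences were those of the retinoic acid receptor Rarb (0.99 ± 0.20), the phosphodiesterase Pde1b (0.99 ± 0.28), the transcription factor Bcl11b (0.92 ± 0.22), the calcium sensor Hpca (0.85 ± 0.25), the G protein subunits Gng7 (0.79 ± 0.26) and Gnal (0.72 ± 0.25), Phactr1 (0.79 ± 0.18), Meis2 (0.63 ± 0.19) and the dopamine signalling phosphoprotein Ppp1r1b (0.48 ± 0.16). Not called were Ptpn5 (0.96 ± 0.41), Rgs9 (0.73 ± 0.29), Rasd2 (0.59 ± 0.40), Strn (0.36 ± 0.21), Foxp2 (0.28 ± 0.28) and Arpp21 (0.20 ± 0.24). The count of 16 became 8 without tissue saline replicate 1, 9 without neuron saline replicate 1 or 2, 10 without tissue saline replicate 3 or 4, and 19 when the astrocyte arrays were left out of the estimate of the spread. Leaving out 1 array ended the calls of Ppp1r1b, Gng7, Pde10a, Meis2, Rxrg, Gnal, Scn4b and Syndig1l, with an adjusted p of up to 0.0993 for Gnal. With the chip as a block Gnal had an adjusted p of 0.0631, and with the mean of all detected probes Phactr1 had one of 0.0930. Under dexamethasone 17 of the 22 were called higher and 0 lower, with a median of 0.88.

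Genes of the indirect pathway were higher in neurons, with 4 of 7 called and a median of 0.90. Penk, the enkephalin precursor, measured 13.09, 13.17, 12.86, 13.11 and 12.88 in neurons and 11.72, 11.38, 11.76, 11.78 and 11.67 in tissue. Every neuron array lay above every tissue array, and the difference was 1.36 ± 0.35 (adjusted p = 0.00911). The orphan receptor Gpr6 differed by 1.35 ± 0.16 (adjusted p = 1.12e-05) and the zinc finger factor Sp9 by 1.96 ± 0.34 (adjusted p = 3.98e-04), Sp9 being detected on 3 of 5 tissue arrays. The receptor phosphatase Ptprm differed by 0.70 ± 0.14. The D2 receptor gene Drd2 measured 11.65, 11.57, 11.20, 11.39 and 11.36 in neurons and 10.29, 11.01, 10.79, 10.44 and 10.13 in tissue. Its groups did not overlap, but the difference of 0.90 ± 0.36 was not called (adjusted p = 0.0800). Plxdc1 (0.54 ± 0.23) and Six3 (0.54 ± 0.23) were not called either.

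Of the direct pathway list 2 of 9 were called higher, 0 lower, and the median was -0.00. Over all genes 11.1% were called higher and 15.9% lower. Pdyn, the dynorphin precursor, measured 13.52, 13.64, 13.81, 14.20 and 13.10 in neurons and 12.59, 12.36, 12.88, 13.03 and 12.65 in tissue. The lowest neuron array lay just above the highest tissue array, with a difference of 0.95 ± 0.25 (adjusted p = 0.0104). Slc35d3, a membrane protein that takes part in D1 receptor trafficking, differed by 1.04 ± 0.30 (adjusted p = 0.0174). The D1 receptor gene Drd1 measured 12.95, 12.79, 13.11, 13.05 and 12.97 in neurons and 11.65, 11.49, 12.39, 12.41 and 11.95 in tissue. The difference of 0.99 ± 0.42 did not pass (adjusted p = 0.0978), and neither did that of the substance P precursor Tac1, 0.59 ± 0.49 (adjusted p = 0.422), although neither gene overlapped between the groups. The saline astrocyte arrays entered the estimate of the spread. Fitted on the 10 arrays alone, Drd1 (adjusted p = 0.00161), Drd2 (0.00210) and Tac1 (0.00324) were called, and over all alternatives their adjusted p ran from 0.00161 to 0.184, 0.00210 to 0.168 and 0.00324 to 0.567. Isl1, Zfp521, Ebf1, Eya1 and Sfxn1 lay between -0.51 and -0.00. Whether the pathways differed from each other was not tested.

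**Figure D1:**
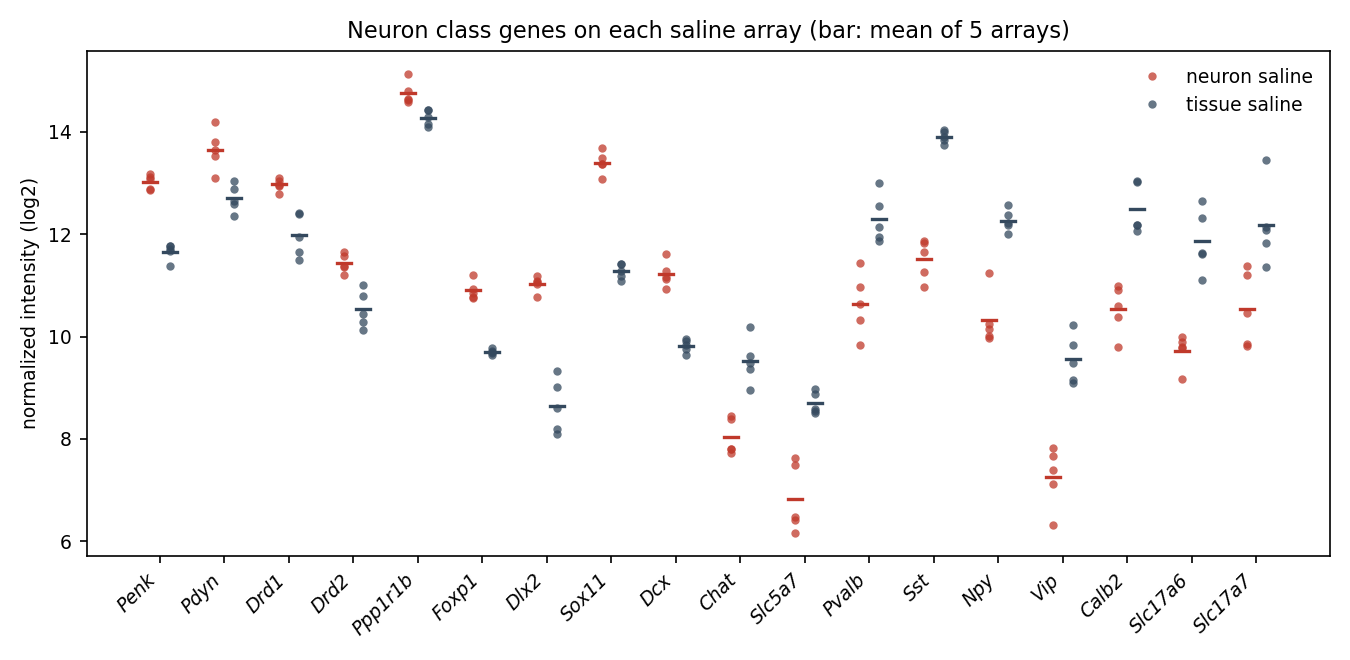
Normalized log2 intensity of 18 neuron class genes on each saline array, with neurons in red, tissue in dark blue and a bar for the mean of 5 arrays. Medium spiny genes such as Penk lay higher in neurons (median of the shared list 0.89 above tissue), and interneuron and glutamatergic genes such as Sst and Slc17a6 lay lower.

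Genes of the patch compartment of the striatum, the striosome, had 1 of 5 called, Kremen1 (1.28 ± 0.31). Tshz1 (0.37 ± 0.16), Rasgrp1 (0.28 ± 0.17), Lypd1 (-0.25 ± 0.16) and Sema5b (-0.26 ± 0.20) were not called. The share called higher over all genes was 11.1%.

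Of 7 genes that mark GABA neurons, 4 were called higher and 0 lower. The enzyme gene Gad1 differed by 0.02 ± 0.28, the vesicular transporter gene Slc32a1 by 0.27 ± 0.29 and the breakdown enzyme gene Abat by -0.03 ± 0.17, and 0 of these 3 were called. For Gad1 this depended on the probe: another probe differed by 0.07 and a further one, detected on 3 of 5 tissue arrays, by 2.55, and the mean of its detected probes was called higher (0.88, adjusted p = 0.00420). The homeobox genes Dlx1, Dlx2, Dlx5 and Dlx6, which specify forebrain GABA neurons during development, were all called higher. Dlx2 measured 11.06, 11.09, 11.19, 10.76 and 11.04 in neurons and 8.60, 9.02, 9.33, 8.09 and 8.20 in tissue. The gap between the groups was wide, and the difference was 2.38 ± 0.22 (adjusted p = 9.29e-07). Dlx1 differed by 2.07 ± 0.22, Dlx6 by 1.41 ± 0.21 and Dlx5 by 0.97 ± 0.23. Under dexamethasone Dlx5 was not called (0.37 ± 0.28).

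Transcripts of newborn neurons were higher in the sorted sample than in tissue. Of 14 tested, 10 were called higher and 0 lower, with a median of 1.23, and the same number were called under dexamethasone. Over all genes 11.1% were called higher. Sox11, a transcription factor of immature neurons, measured 13.37, 13.08, 13.68, 13.38 and 13.49 in neurons. In tissue it measured 11.41, 11.08, 11.42, 11.19 and 11.29. Neurons lay above tissue on every array, by 2.12 ± 0.15 (adjusted p = 4.47e-08). Igfbpl1, an IGF binding protein family member, differed by 2.78 ± 0.24, the transcription factors Sp8 by 1.91 ± 0.29 and Sox4 by 1.81 ± 0.20, the axon guidance gene Draxin by 1.65 ± 0.28, and Dcx, the doublecortin gene, by 1.40 ± 0.23. Dpysl3 (1.22 ± 0.21), Nrep (0.98 ± 0.19) and the tubulin gene Tubb2b (0.47 ± 0.11) were also called. Cd24a stayed below detection on all tissue arrays, so its excess was at least 2.03-fold. Not called were Robo2 (0.57 ± 0.24), Stmn1 (0.41 ± 0.15), Prokr2 (0.20 ± 0.22) and Marcksl1 (-0.13 ± 0.18), and Robo2 was called with the chip as a block (adjusted p = 0.0304). Draxin was not called under dexamethasone (0.46 ± 0.30). Tubb2b was not called with the mean of all detected probes (0.43, adjusted p = 0.0702).

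Genes of dividing cells were higher in neurons for nearly every member tested. Of 25 tested, 24 were called higher and 0 lower, with a median of 2.36, and 24 were also called under dexamethasone. Of 29 list genes on the array, these 25 passed the filter of detection on at least 5 of the 30 arrays. Pclaf was detected on 5 saline arrays of neurons and on 0 of tissue and of astrocytes. Such genes passed through arrays where they were high, so the filter partly sets the share called. Top2a, the topoisomerase of dividing cells, measured 10.07, 10.09, 10.20, 9.91 and 9.72 in neurons and 6.20, 6.21, 6.45, 6.59 and 5.99 in tissue. The groups were far apart, by 3.71 ± 0.17 (adjusted p = 5.09e-10), with 1 of 5 tissue arrays above the detection limit. Pclaf, a replication clamp factor, and Mki67, the proliferation antigen Ki-67, were not detected in tissue and exceeded it at least 7.90-fold (Pclaf) and at least 7.25-fold (Mki67). The mitotic kinase gene Pbk differed by 3.46 ± 0.27, the spindle genes Nusap1 by 3.35 ± 0.27 and Prc1 by 3.17 ± 0.26, Cdca8 of the chromosomal passenger complex by 3.04 ± 0.25 and Cdc20, an activator of mitotic exit, by 2.95 ± 0.17. The replication genes Mcm5 (2.36 ± 0.18) and Mcm6 (2.31) followed, and Bub1, a spindle checkpoint kinase, was not called (0.05). Outside the list, Uhrf1, which maintains DNA methylation (3.34 ± 0.18), and Cdca7 (3.04 ± 0.17) belonged to the 20 largest excesses. On the saline astrocyte arrays the mean of the dividing genes was 6.53 to 6.74, near the 6.77 to 7.02 of tissue and below the 9.22 to 9.63 of neurons.

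Of the 25 dividing genes, 22 had a RefSeq promoter on GRCm38.p6, a window of 300 bases across the gene's start. The letters TTTGAA, known as the cell cycle homology region, were searched on both strands, as were the letters CCAAT, the core of the NF-Y site; matches of one and the other can share no more than an end base. TTTGAA was found in 13 of the 22, against 18.1% of 27025 promoters, and CCAAT in 19, against 37.9%. Both were found in 13, against 7.12%. A match describes the letters and does not show binding. The 22 were searched as members of a list of known dividing cell genes, whatever their difference between neurons and tissue. These counts therefore describe the list and are not a result about the samples. The promoters of Top2a (chr11:99024140-99024439, minus strand), Mki67 (chr7:135716330-135716629, minus strand) and Prc1 (chr7:80294201-80294500, plus strand) are shown as examples with large differences among the 13, Mki67 being undetected in tissue, so that its place among them is not measured. Capitals mark TTTGAA or CCAAT on either strand.
Top2a: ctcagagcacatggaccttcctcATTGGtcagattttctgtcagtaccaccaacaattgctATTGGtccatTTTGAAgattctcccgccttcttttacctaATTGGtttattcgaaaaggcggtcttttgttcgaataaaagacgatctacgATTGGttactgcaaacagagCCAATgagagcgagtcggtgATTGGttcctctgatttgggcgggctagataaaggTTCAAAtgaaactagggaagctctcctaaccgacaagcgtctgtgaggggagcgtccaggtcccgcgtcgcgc
Mki67: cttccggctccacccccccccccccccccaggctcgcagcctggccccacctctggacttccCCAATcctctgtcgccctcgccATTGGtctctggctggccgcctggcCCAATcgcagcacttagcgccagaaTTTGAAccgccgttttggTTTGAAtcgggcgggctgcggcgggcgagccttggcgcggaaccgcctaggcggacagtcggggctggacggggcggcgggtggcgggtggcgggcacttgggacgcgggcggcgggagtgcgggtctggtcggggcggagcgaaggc
Prc1: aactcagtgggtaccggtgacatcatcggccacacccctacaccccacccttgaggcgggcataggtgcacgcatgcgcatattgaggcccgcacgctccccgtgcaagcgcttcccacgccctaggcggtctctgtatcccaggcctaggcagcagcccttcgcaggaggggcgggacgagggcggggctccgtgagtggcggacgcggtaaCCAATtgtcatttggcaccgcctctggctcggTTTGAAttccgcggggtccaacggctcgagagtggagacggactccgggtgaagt
The Top2a promoter held 2 matches of TTTGAA and 6 of CCAAT, that of Mki67 held 2 and 3, and that of Prc1 held 1 of each.

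Of 7 neural stem cell markers, 1 was called higher and 2 lower, against 11.1% higher and 15.9% lower over all genes. Nes, the nestin gene, was higher (1.20 ± 0.32), Hes5, a Notch target of stem cells and astrocytes (-2.81 ± 0.27), and Nr2e1 (-0.90 ± 0.25) were lower, and Vim, Egfr, Notch1 and Sox2 were not called.

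**Figure D2:**
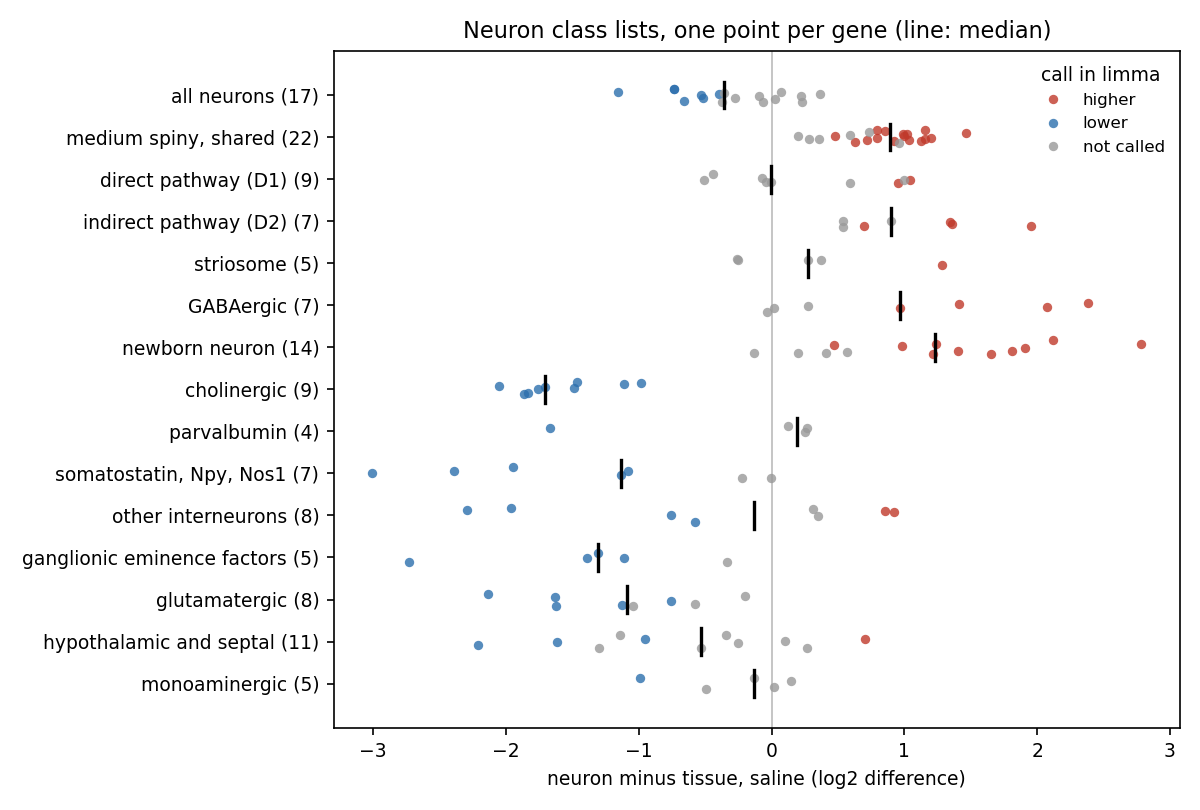
Log2 difference between sorted neurons and tissue under saline for every tested member of 15 neuron class lists, with the number tested in brackets, red for genes called higher, blue for lower, grey for not called, and a line at each median. The medians of medium spiny, indirect pathway and newborn neuron genes lay to the right of 0, and all 9 cholinergic genes lay to the left.

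Cholinergic interneuron genes were lower in sorted neurons than in tissue. All 9 tested were called lower, with a median of -1.70, against 15.9% over all genes, and all 9 were also lower under dexamethasone (median -1.80). Chat, the acetylcholine synthesis enzyme, measured 8.44, 7.72, 8.40, 7.79 and 7.79 in neurons and 9.63, 8.95, 10.18, 9.48 and 9.36 in tissue. Each neuron array lay below each tissue array, by 1.49 on average (-1.49 ± 0.27, adjusted p = 6.03e-04). The choline transporter gene Slc5a7 differed by -1.87 ± 0.25, the vesicular acetylcholine transporter gene Slc18a3 by -1.47 ± 0.27 and the transporter-like gene Slc10a4 by -1.83 ± 0.22. The transcription factors Gbx2 (-2.05 ± 0.34) and Lhx8 (-1.76 ± 0.26), the vesicular glutamate transporter gene Slc17a8 (-1.70 ± 0.32), the neurotrophin receptor Ngfr (-1.11 ± 0.30) and the protease gene Ecel1 (-0.98 ± 0.27) showed the same direction. Slc18a3 was detected on 1 of 5 neuron arrays and Slc5a7, Gbx2 and Lhx8 on 2 of 5, against 5 of 5 in tissue for each. The mean of the 9 genes was 7.11 to 7.51 in neurons, 8.32 to 9.23 in tissue and 6.15 to 6.37 in saline astrocytes, so that it was lower than in tissue but not at the astrocyte level.

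Interneurons with somatostatin and neuropeptide Y showed lower transcripts too, with 5 of 7 genes called lower, 0 higher and a median of -1.13. Sst, the somatostatin precursor, measured 10.97, 11.27, 11.87, 11.65 and 11.82 in neurons and 13.89, 13.85, 14.00, 13.75 and 14.05 in tissue. No neuron array reached the lowest tissue array, and the difference was -2.39 ± 0.20 (adjusted p = 3.77e-07). Npy measured 10.02, 11.23, 9.96, 10.25 and 10.14 in neurons and 12.57, 12.37, 11.99, 12.21 and 12.17 in tissue (-1.94 ± 0.24), with neuron replicate 2 above the other neuron arrays. Crhbp, a binding protein of corticotropin-releasing hormone, differed by -3.01 ± 0.27, Elfn1 by -1.13 ± 0.26 and the substance P receptor gene Tacr1 by -1.08 ± 0.36. Nos1 (-0.22 ± 0.28) and Chodl (-0.00 ± 0.23), which mark a subset of these cells, were not called. Nos1 was dim, at 7.32 on neuron replicate 3 and 6.06 to 6.31 on the other neuron arrays, near the detection limit. Its lack of a call therefore says little about that subset. The call of Tacr1 was lost in 5 of the 10 fits without 1 array, at an adjusted p of up to 0.0935 without neuron saline replicate 1.

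Pvalb, the parvalbumin gene, measured 10.96, 10.64, 10.32, 9.84 and 11.43 in neurons and between 11.87 and 13 in tissue, with a median of 12.14. It was lower in neurons by -1.67 ± 0.29 on the log2 scale (adjusted p = 5.09e-04), and on each chip. The other 3 genes of its list, Kcnc1, Kcnc2 and Cox6a2, differed by 0.13 to 0.27 and were not called. Kcnc2 was dim, at 7.54 on neuron replicate 2 and 6.34 to 6.62 on the other neuron arrays. Among further interneuron genes, the peptide genes Vip (-2.30 ± 0.36) and Cck (-0.76 ± 0.26), the calretinin gene Calb2 (-1.96 ± 0.27) and the dopamine synthesis gene Th (-0.58 ± 0.21) were called lower. The extracellular matrix gene Reln (0.92 ± 0.19) and the membrane protein gene Lamp5 (0.86 ± 0.23), both of neurogliaform cells in cortex, were called higher, and Prox1 (0.31 ± 0.29) and Htr3a (0.35 ± 0.26) were not called. The calls of Cck and Th were lost without 1 array (adjusted p up to 0.109 without tissue saline replicate 2 and 0.134 without tissue saline replicate 5), and that of Th also with the chip as a block (0.0839).

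Factors of interneurons born in the medial ganglionic eminence were lower for 4 of 5. Nxph1, a secreted neurexin ligand, differed by -2.73 ± 0.28, the transcription factors Nkx2-1 by -1.30 ± 0.33 and Sox6 by -1.11 ± 0.22. Maf was not detected on any neuron array and was at least 1.52-fold lower there than in tissue. Lhx6 was detected on 1 of the 10 arrays and was not called.

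Glutamatergic markers, whose cell bodies lie outside the accumbens, were lower for 5 of 8, with a median of -1.09. Slc17a6, a vesicular glutamate transporter gene of subcortical neurons, measured 9.18, 9.89, 9.77, 9.79 and 9.99 in neurons and 12.32, 11.61, 11.10, 11.62 and 12.66 in tissue. All neuron arrays lay below all tissue arrays, and the difference was -2.14 ± 0.31 (adjusted p = 8.08e-05). Slc17a7, the cortical counterpart, measured 10.46, 9.85, 9.82, 11.21 and 11.38 in neurons and 11.84, 13.45, 12.07, 12.14 and 11.37 in tissue. Its groups overlapped at the edge, with a difference of -1.63 ± 0.42. The cortical transcription factors Neurod2 (-1.63 ± 0.37) and Fezf2 (-1.12 ± 0.30) were lower, Rorb was called lower but detected on 0 neuron arrays (at least 1.08-fold), and Tbr1 (-1.05 ± 0.47), Cux2 (-0.58 ± 0.27) and Nr4a2 (-0.20 ± 0.30) were not called.

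Peptides of hypothalamic and septal neurons varied between tissue samples. Pmch, the melanin-concentrating hormone precursor, measured 13.35, 12.22, 9.36, 9.31 and 13.55 in tissue and 9.73, 11.15, 9.70, 10.34 and 11.18 in neurons. Hcrt, the orexin precursor, measured 11.48, 9.65, 6.68, 7.07 and 11.14 in tissue and 9.03, 10.43, 7.93, 8.82 and 8.54 in neurons. Tissue replicates 1 and 5 were highest for both, replicates 3 and 4 lowest, and neither gene was called (-1.14 ± 0.76 and -0.25 ± 0.87). Trh (-2.21 ± 0.27), Gal (-1.61 ± 0.31) and the septal transcription factor Zic1 (-0.95 ± 0.28) were lower in neurons. Avp, the vasopressin precursor, was higher (0.70 ± 0.23), a call lost without 1 array (adjusted p up to 0.0842 without neuron saline replicate 2), as was that of Zic1 (0.0531 without tissue saline replicate 1). Oxt (-1.30 ± 0.49), Crh, Tac2, Nts and Zic2 were not called, Oxt having an adjusted p of 0.0364 with the chip as a block. Of 5 monoaminergic genes, Tph2 was called lower and had no detected value in neurons, so no fold is given, and Ddc, Slc18a2 and Pitx3 lay between -0.13 and 0.15 and were not called. The dopamine transporter gene Slc6a3 measured 10.37 on tissue replicate 5 and 5.62 to 6.75 on the other tissue arrays, and was not called.

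Genes expressed by all neurons were slightly lower in the sorted sample. Of 17 tested, 7 were called lower and 0 higher, with a median of -0.36, against 15.9% called lower over all genes. Stmn2, a regulator of axonal microtubules, measured 11.63, 11.57, 11.76, 12.05 and 11.90 in neurons and 12.85, 13.20, 13.05, 12.78 and 12.81 in tissue (-1.16 ± 0.18, adjusted p = 1.74e-04). The synaptic vesicle protein gene Syp (-0.74 ± 0.16), the ubiquitin hydrolase gene Uchl1 (-0.73 ± 0.17), the surface glycoprotein gene Thy1 (-0.66 ± 0.12), the neurofilament gene Nefm (-0.53 ± 0.16), Stmn3 (-0.52 ± 0.19) and the calcium sensor gene Syt1 (-0.40 ± 0.14) were also lower. The nuclear protein gene Rbfox3, known as NeuN, differed by 0.03 ± 0.19 and Map2 of dendrites by -0.06 ± 0.11, neither called, nor were Ina, Elavl4, Syn1, Eno2, Gap43, Elavl3, Celf4 and Tubb3. The count of 7 fell to 4 without neuron saline replicate 3, without tissue saline replicate 3 and with median scaling. Leaving out 1 array ended the calls of Syt1, Stmn3 and Nefm (adjusted p up to 0.0979, 0.108 and 0.0593), and Syt1 (0.0712) and Stmn3 (0.0611) were also not called with the chip as a block. With the mean of all detected probes, Thy1 (-0.25, adjusted p = 0.284) and Syt1 (-0.10, adjusted p = 0.617) were not called.

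Transcripts known to travel into dendrites were higher in neurons than in tissue for 8 of 12 genes, with 0 lower and a median of 1.04, against 11.1% called higher and a median of 0.00 over all genes. Kif5a, a kinesin motor gene, measured 15.28, 14.94, 15.41, 14.70 and 15.15 in neurons and 13.10, 14.12, 13.76, 13.17 and 12.89 in tissue (1.69 ± 0.21, adjusted p = 1.98e-05). The postsynaptic scaffold genes Shank3 (1.28 ± 0.25) and Dlgap3 (1.18 ± 0.35), the dendritic protein gene Ddn (1.20 ± 0.31) and the kinase gene Camk2a (1.12 ± 0.26) lay in the same direction, as did Rgs14 (0.88 ± 0.27), Itpka (0.64 ± 0.22) and Arc. Without 1 array the call of Itpka was lost in 9 of 10 fits (adjusted p up to 0.105) and that of Rgs14 in 3 (up to 0.0578). Synaptic vesicle genes divided, with 6 of 17 lower and 2 higher, against 15.9% called lower and 11.1% higher over all genes. Vamp1 (-1.34 ± 0.19), Sv2a (-0.79 ± 0.16) and Cplx1 (-0.71 ± 0.20) were lower, and Rims1 of the active zone (1.11 ± 0.28) and Cplx2 (1.18 ± 0.39) were higher. The call of Cplx2 was lost without 1 array (adjusted p up to 0.0831 without neuron saline replicate 1), as was that of Dlgap3 without tissue saline replicate 5 (0.0538). Rims1 was not called with the mean of all detected probes (1.06, adjusted p = 0.0574).

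Receptor and channel genes included calls in both directions, to be read against 11.1% higher and 15.9% lower over all genes. Of 16 glutamate receptor genes 6 were higher and 2 lower, among them Grm4 (1.11 ± 0.26), Grik2 (1.00 ± 0.21), Grm7 (0.99 ± 0.24) and Grin2b (0.67 ± 0.18) higher, and Grik1 (-1.89 ± 0.29) and Gria4 (-0.86 ± 0.19) lower. Of 8 GABA receptor genes, Gabrd of tonic inhibition was higher (1.01 ± 0.31) and Gabra3 lower (-1.12 ± 0.24). Of 18 voltage-gated channel genes 5 were higher, such as the potassium channel gene Kcnd2 (0.96 ± 0.22) and the calcium channel gene Cacna1h (0.87 ± 0.14), and 2 lower, such as Cacna1g (-1.27 ± 0.21). The nociceptin receptor gene Oprl1 was lower (-0.90 ± 0.29), and the cannabinoid receptor gene Cnr1 was not called. The call of Oprl1 was lost without 1 array (adjusted p up to 0.0648 without tissue saline replicate 5), and that of Gabrd was lost at up to 0.0657 without the same array. Among the other called members, Scn1a (-0.63 ± 0.22), the other lower channel gene, lost its call in 7 of 10 such fits and with the 10 arrays alone (adjusted p = 0.0720), which leaves 1 lower channel gene. Scn3a (0.48 ± 0.17) lost it in 8, Scn4b in 10, Grm5 (1.22) in 3 and Gria3 (0.42) in 2. With the mean of all detected probes, Scn3a (0.03, adjusted p = 0.906) and Gria4 (-0.44, adjusted p = 0.0579) were not called.

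Glial and meningeal transcripts were the largest losses. All 16 microglia genes were called lower, with a median of -3.44, and genes of microglia and other myeloid cells made up most of the 20 largest deficits. C1qc, a complement subunit gene, measured 6.91, 5.70, 6.31, 5.60 and 5.88 in neurons and 10.93, 10.63, 10.81, 10.57 and 10.60 in tissue. It was above the detection limit on 1 of 5 neuron arrays, and the difference was -4.63 ± 0.22 (adjusted p = 5.61e-10). C1qb (-4.15 ± 0.19), Fcrls (-4.06 ± 0.21), Fcer1g (-3.95 ± 0.24), Mpeg1 (-3.63 ± 0.27), Laptm5 (-3.62 ± 0.16), Lyz1 (-3.41 ± 0.25) and Ctss (-3.36 ± 0.23) were also among the largest deficits. Of these, Fcer1g, Mpeg1 and Lyz1 were detected on 1 of 5 neuron arrays and C1qb, Fcrls and Ctss on 2. The detection limit therefore bears on the size of their deficits, as on that of C1qc. Not detected on any neuron array were Ly86 (at least 8.36-fold lower), the fractalkine receptor gene Cx3cr1 (at least 7.87-fold), Selplg (at least 6.90-fold), Fcgr3 (at least 5.67-fold), Tyrobp (at least 5.61-fold) and Trem2 (at least 5.29-fold). Border macrophage genes were lower for 4 of 7.

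Astrocyte genes were lower for 17 of 20, with a median of -2.09. The angiotensinogen gene Agt (-4.02 ± 0.29), the intermediate filament gene Gfap (-3.94 ± 0.29) and the lipid carrier gene Apoe (-3.29 ± 0.26), which is outside the list, were among the 20 largest deficits. Gfap was detected on 1 of 5 neuron arrays and Agt on 3. Slc1a3, a glutamate transporter gene, measured 12.89, 11.77, 13.17, 12.27 and 13.33 in neurons and 15.32, 15.07, 15.24, 15.34 and 15.14 in tissue, so that it was lower in neurons but well detected there. The bicarbonate transporter gene Slc4a4 was higher (0.88 ± 0.21), and Gli3 and Mlc1 were not called. With the mean of all its detected probes Slc4a4 was not called (0.31, adjusted p = 0.119). Oligodendrocyte genes were lower for 9 of 12, with a median of -2.07, such as Trf (-2.77 ± 0.29), Opalin (-2.69 ± 0.32), Mog (-2.67 ± 0.31) and Mag (-2.50 ± 0.27). Mbp lay within 0.5 of the highest intensity on all 10 arrays, where a difference is compressed, and Mobp, also of myelin, measured 0.04 ± 0.20 with its brightest probe but -2.28, -1.75, -0.98 and -0.47 with 4 others. Precursor genes were lower for 7 of 8, among them the growth factor receptor gene Pdgfra (-2.65 ± 0.29).

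Ptgds, a prostaglandin synthase gene of meninges and oligodendrocytes, had the largest deficit of all called genes, -5.50 ± 0.28 (adjusted p = 1.86e-09). It measured 7.56, 6.77, 7.36, 7.63 and 8.11 in neurons and 12.66, 12.94, 13.05, 13.08 and 13.19 in tissue. The fibroblast genes Igf2 (-3.94 ± 0.20) and Dcn (-3.79 ± 0.30) followed, and 6 of 8 genes of this list were lower. Dcn was detected on 2 of 5 neuron arrays. Mural genes were lower for 5 of 9, with Vtn at -3.06 ± 0.21 and Acta2 of smooth muscle at -2.86 ± 0.44. Ependymal genes were lower for 3 of 7 and higher for 1, and choroid plexus genes lower for 2 of 6 and higher for 1.

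Endothelial genes were higher in neurons, with 10 of 14 called, 0 lower and a median of 0.96, and 7 called under dexamethasone. The share called higher over all genes was 11.1% under saline and 11% under dexamethasone. The VEGF receptor gene Flt1 measured 12.61, 12.22, 12.84, 12.41 and 12.94 in neurons and between 10.50 and 11.32 in tissue, with a median of 10.95 (1.72 ± 0.29, adjusted p = 2.83e-04). Pecam1 (1.40 ± 0.24), Eng (1.31 ± 0.27), Vwf (1.28 ± 0.28) and Cldn5 of tight junctions (0.96 ± 0.23) were also higher. The endothelial mean was 9.85 to 10.56 in neurons, 9.02 to 9.30 in tissue and 9.54 to 10.63 in saline astrocytes, so that the sorted preparations overlapped. The part of endothelial cells in other results was not tested.

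Red cell genes held the largest excess in neurons, and 6 of 13 were called higher and 2 lower. Alas2, which starts haem synthesis in red cell precursors, measured 12.97, 13.16, 13.36, 13.21 and 13.87 in neurons and 8.05, 7.85, 7.79, 8.29 and 7.49 in tissue. The gap was more than 4 log2 units on every array, with a difference of 5.42 ± 0.34 (adjusted p = 1.68e-08). Hbb-b2, a beta globin gene, differed by 4.32 ± 0.28 and Slc4a1, the anion exchanger of red cells, by 3.59 ± 0.23. Tmcc2 (1.12 ± 0.28) and Fech (0.69 ± 0.22) were higher. Hba-a1 (0.67 ± 0.22) and Hbb-b1 (0.33 ± 0.18, not called) lay close to the highest intensity on 6 and 7 of the 10 arrays. Car2 (-1.48 ± 0.19) and Ank1 (-0.85 ± 0.18), both also expressed in brain cells, were lower, and the erythroid transcription factors Klf1 and Gata1 were each detected on 2 neuron arrays and not called. Globin genes have near-identical copies that a probe may not separate. The calls of Hba-a1 and Fech were lost without 1 array (adjusted p up to 0.0861 and 0.0743). The red cell mean was 10.23 to 10.65 in neurons, 9.33 to 9.52 in tissue and 9.26 to 9.69 in saline astrocytes.

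Of other blood cells, the neutrophil genes Lcn2 (1.84 ± 0.32) and Prtn3 (0.92 ± 0.15) were higher and S100a8 (-1.18 ± 0.32) lower, and Lcn2 and Prtn3 were not called under dexamethasone (0.85 ± 0.58 and 0.15 ± 0.21). Cd4 was the only lymphocyte gene of 4 called higher (1.12 ± 0.34), a call lost without tissue saline replicate 3 (adjusted p = 0.0599), neuron saline replicate 2 or neuron saline replicate 5. The remaining genes among the 20 largest excesses were Ube2l6, a conjugating enzyme gene of the ISG15 pathway (4.27 ± 0.18), Rsad2, the antiviral gene viperin (3.36 ± 0.23), Fam220a (3.40 ± 0.18), Erich2 (3.30 ± 0.24) and Rtkn2 (2.99 ± 0.33). Erich2 was detected on 1 of 5 tissue arrays. Apol11b, Rec114 and 1190002F15Rik stayed below detection in tissue, with excesses of at least 6.31-fold, 6.66-fold and 5.32-fold.

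**Figure D3:**
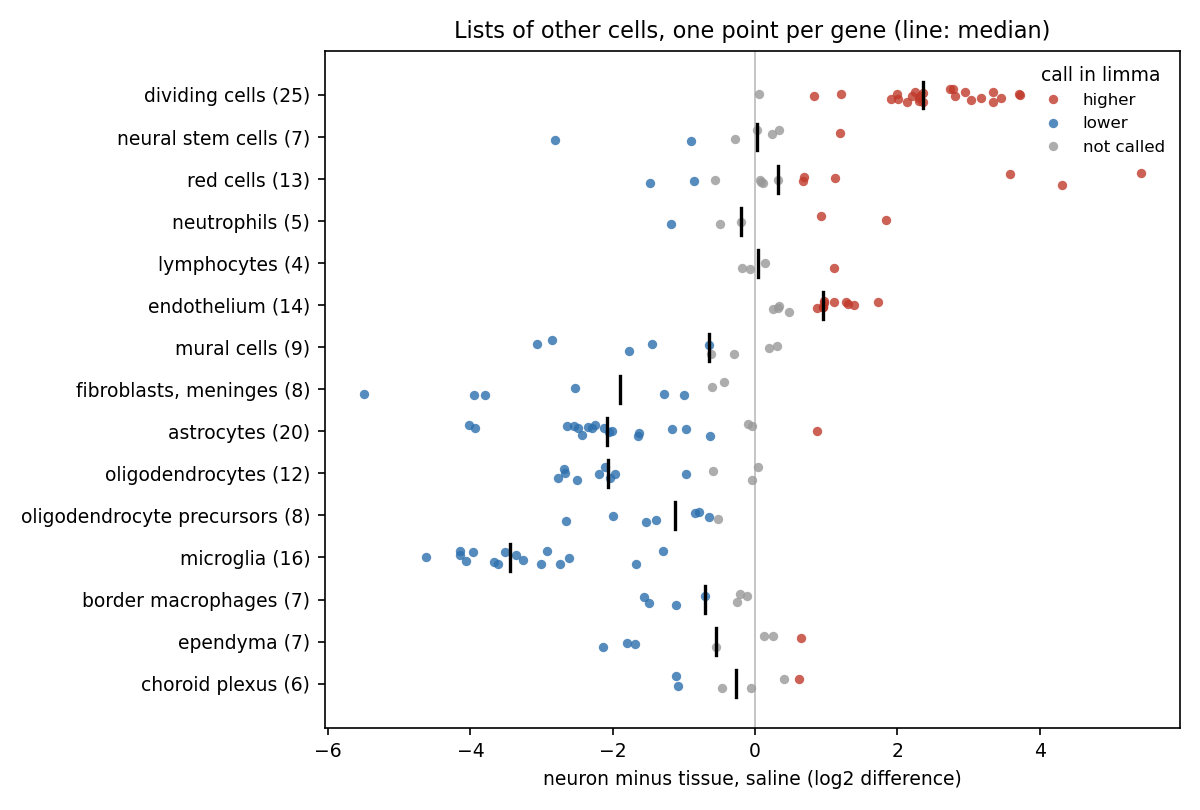
Log2 difference between sorted neurons and tissue under saline for every tested member of 15 lists of other cells, drawn as for the neuron classes with calls in colour and a line at the median. The medians of dividing cell genes (2.36) and endothelial genes (0.96) lay to the right of 0, and those of microglia (-3.44), astrocyte and oligodendrocyte genes to the left.

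Interferon genes divided. Of 12 tested, 3 were higher (Rsad2, Isg15 at 1.14 ± 0.24 and Irf7, undetected on tissue arrays and thus at least 1.41-fold higher) and 4 were lower. The lower ones were the antigen presentation genes B2m (-1.15 ± 0.11) and Psmb8 (-1.77 ± 0.26), Ifit3 (-1.33 ± 0.22) and Ifi27 (-0.40 ± 0.14). The calls of Irf7 and Ifi27 were lost without 1 array, Ifi27 at up to an adjusted p of 0.115 without tissue saline replicate 1.

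Immediate early genes, which respond within minutes to activity and to handling, were higher for 5 of 13 and lower for 0. Over all genes 11.1% were called higher and 15.9% lower. Fos measured 11.13, 11.14, 11.59, 11.61 and 10.99 in neurons and 9.36, 9.54, 9.95, 9.89 and 9.39 in tissue (1.67 ± 0.28, adjusted p = 3.45e-04). Npas4, a factor induced by activity in neurons, differed by 1.55 ± 0.30, Fosb by 1.50 ± 0.36, Arc by 0.96 ± 0.28 and the phosphatase gene Dusp1 by 0.84 ± 0.21. Egr1 (0.21 ± 0.21) and Atf3 (0.04) were not called. The mean of the 13 genes was 10.38 to 10.68 in neurons, 9.49 to 10 in tissue and 9.87 to 10.77 in saline astrocytes, so that the sorted preparations overlapped and 3 of the 5 astrocyte arrays lay above all tissue arrays. The part of sorting in these differences was not tested. Heat shock genes gave 1 higher (Hsph1) and 1 lower (Bag3, -1.84 ± 0.17) of 11, and 1 of 11 inflammatory genes, Socs3 (0.86 ± 0.28), was higher. The higher counts of both lists lay near the 11.1% over all genes. Genes of the integrated stress response were higher for 3 and lower for 4 of 13, with the lowest values at the cystine transporter gene Slc7a11 (-2.90 ± 0.27) and the serine synthesis gene Phgdh (-2.07 ± 0.33). Calls were lost without 1 array for Arc (adjusted p = 0.0534 without tissue saline replicate 5), Hsph1 (0.0604) and Socs3 (up to 0.0815).

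Long noncoding RNAs of the nucleus were lower for 3 of 5, with Neat1 at -1.07 ± 0.22, Meg3 at -0.85 ± 0.21 and Snhg11 at -0.61 ± 0.16. Of the other members, Xist, the RNA of the inactive X chromosome, had the largest difference of the list, 1.49 ± 0.75, and was not called, nor was Peg13 (-0.30 ± 0.15). Of 17 respiratory chain genes 1 was called higher and 3 lower, with a median of -0.09. Of 12 ribosomal protein genes 2 were called higher and 0 lower, with a median of 0.29. The shares over all genes were 11.1% higher and 15.9% lower.

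The contrast was repeated in the mice given dexamethasone, whose arrays are separate from those above though they lay on the same 5 chips. There 3197 genes (24.2%) were called, 1460 higher (11%) and 1737 lower (13.1%). Without tissue dexamethasone replicate 5 the count was 4045, and without any other 1 array it was 2624 to 3216. The indirect pathway mean of that array was 9.65, against 8.52 to 8.83 on the other tissue arrays under dexamethasone. Its direct pathway mean was 10.03, against 10.55 to 10.77. The shares below, and the genes not called under dexamethasone here and above, were not examined without that array. Of the genes called higher under saline 60.9% were also called higher under dexamethasone, and these were 61.1% of the dexamethasone calls; for lower genes the shares were 66.6% and 80.4%. No gene was called in opposite directions. Across the 13228 genes, which are not independent replicates, the differences under the 2 agents correlated with r = 0.875. Chat (-1.72 ± 0.23), Sst (-2.54 ± 0.34), Pvalb (-1.91 ± 0.31), Penk (1.26 ± 0.18), Sox11 (1.86 ± 0.20) and Top2a (3.34 ± 0.28) had the same sign as under saline. Tac1 (0.68 ± 0.19), Rgs9 (0.73 ± 0.16) and Ptpn5 (1.30 ± 0.30) were called under dexamethasone, and Drd1 (0.68 ± 0.27) and Drd2 (0.67 ± 0.26) were not.

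**Figure D4:**
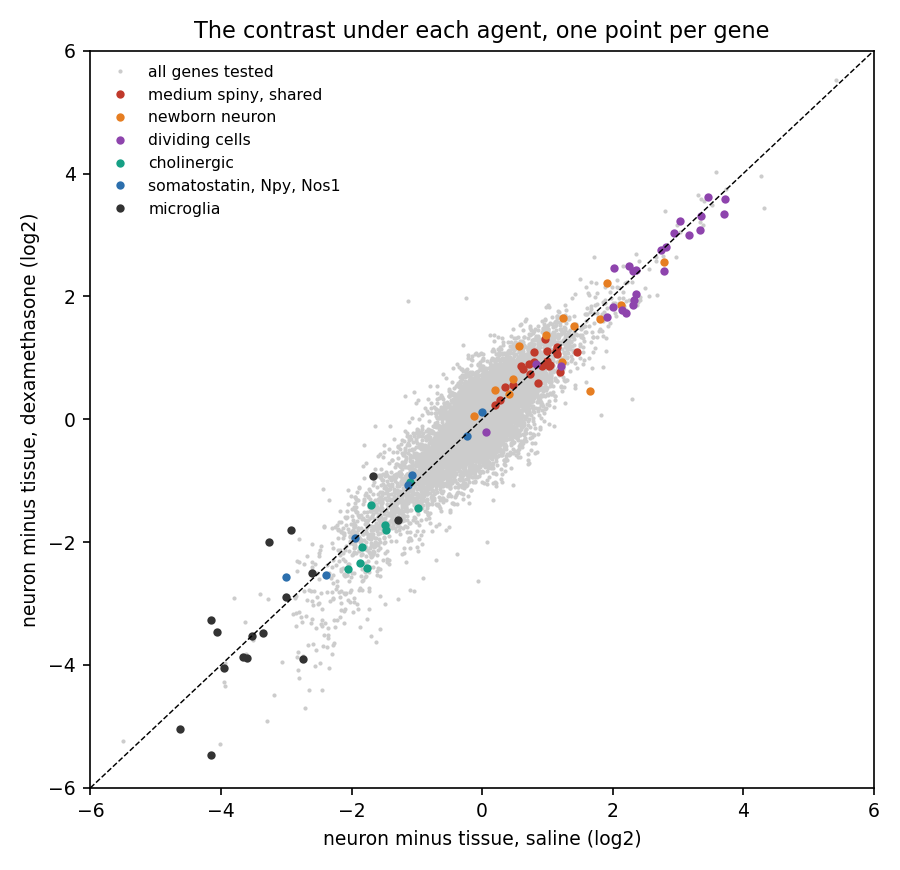
Log2 difference between sorted neurons and tissue under saline (horizontal) and under dexamethasone (vertical), one grey point per gene, with members of 6 lists in colour and a dashed line of equality. The members of these lists called under saline lay on the same side of 0 under both agents, and r across genes was 0.875.

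The difference of the contrast between the agents was called for 7 genes, with 595 at an unadjusted p under 0.05. All 7 had a larger deficit of neurons against tissue under dexamethasone. They were Pdk4, a kinase that restrains pyruvate oxidation (-1.29 ± 0.14 under saline and -2.92 ± 0.18 under dexamethasone, adjusted p of the difference 7.48e-04), the cell cycle inhibitor gene Cdkn1a (-0.38 ± 0.24 and -2.19 ± 0.24), the astrocyte genes Aldoc (-2.64 ± 0.24 and -4.40 ± 0.24) and Slc7a10 (-1.63 ± 0.21 and -3.62 ± 0.31), Fads2 (-1.04 ± 0.20 and -2.80 ± 0.26), Ms4a6d (-1.11 ± 0.23 and -2.77 ± 0.21) and Fam20a (-2.26 ± 0.19 and -3.64 ± 0.20). From saline to dexamethasone, mean levels of Cdkn1a (9.42 to 11.25) and Ms4a6d (6.65 to 8.35) rose in tissue. In neurons these 2 genes went from 9.04 to 9.06 and from 5.54 to 5.58. Pdk4 and Fads2 rose in tissue (7.59 to 8.79 and 8.63 to 9.44) and fell in neurons (6.30 to 5.86 and 7.59 to 6.65). Aldoc, Slc7a10 and Fam20a fell mainly in neurons (11.73 to 10.18, 8.54 to 6.62 and 8.18 to 6.90). The astrocyte list had a median of -2.09 under saline and -3.17 under dexamethasone, and the part of astrocyte RNA in the neuron samples was not tested.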

How the data were processed

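RNA from single mice was measured on Illumina bead arrays. Per the labels, RNA was purified on RNeasy columns and amplified into biotin-labelled cRNA; no scanner software or statistics of the study are given in the labels. One file deposited by the authors holds log2 intensities of 46174 probes without normalization between arrays, negative controls or detection values. Another deposited file, on a compressed log2 scale (the log2 of log2 intensities after quantile normalization), was used in one alternative.

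From the deposited intensities, 1588 probes for olfactory, taste and related receptors stood in for negative controls. Intensities were background-corrected with limma's normexp model (offset 16), put on the log2 scale and then quantile-normalized over all 30 arrays. A probe was detected on an array when fewer than 5% of receptor probes were as bright, and 22568 of the other 44586 probes were detected on at least 5 arrays. Of all probes, 35725 had 1 gene symbol, 0 several and 10449 none; symbols were updated through RefSeq GRCm38.p6 (28566 probes by Entrez ID, 2632 by accession, 4527 kept). The brightest probe on average stood for each gene, giving 13228 genes; of 1838 further probes of called genes 1579 had the same sign and 259 the opposite.

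The main fit was limma 3.58.1 in R 4.3.3 (lmFit, eBayes, two-sided, Benjamini-Hochberg over all genes) on the 15 saline arrays, with the contrast neurons minus tissue. Differences are given ± SE with n = 5 arrays per group. The dexamethasone contrast used its 15 arrays, and the difference between agents was an interaction on all 30. The test was checked on simulated arrays with known differences, drawn with independent normal errors and no chip effect. That check does not cover the pairing of arrays by chip. The number of arrays limits the precision. Where all 5 arrays of a group lacked detection, the fold is a bound, written "at least N-fold": the mean of the other group over, on each dim array, the lowest level counted as detected or the level of the gene itself, whichever was higher.

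The arrays and the 45 gene lists (604 genes) were chosen with earlier results of these data known, so lists are described by counts and medians without a test. Named genes were the 20 largest differences in each direction among calls with the same sign on all 5 chips, every tested member of the neuron class lists, and, for the other lists, the 8 members with the smallest p at most; Mobp, Mbp, Mlc1, Gli3, Slc4a4, Egr1, Atf3, Bub1, Mcm6, Klf1, Gata1, Hbb-b1 and the genes with a called difference between agents, other than Aldoc, were named after their values were seen.

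Arrays with the same replicate number shared a chip, per the labels, and are therefore paired. After subtraction of the group means, the neuron and tissue arrays of a chip correlated at 0.07, 0.16, 0.05, 0.25 and 0.09, against a mean of -0.03 for arrays of different chips.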

Additional observations from a re-analysis of the deposited data

Results flagged for a closer look

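An array stood apart from the other 4 of its group, by Dixon's ratio of its gap to the group's range, for 36 of 642 gene or list levels examined, above a critical value of 0.71. Chance flags about 1 in 20 such groups. For neuron replicate 1 these were Slc17a6 (0.7201, low) and Trh (0.8263, low). For neuron replicate 2 these were Slc10a4 (0.7236, low), Kcnc2 (0.7702, high), Npy (0.7757, high), Cd24a (0.7698, low), Prokr2 (0.75, low), the mean of the GABAergic list (0.8799, low) and the mean of the nuclear noncoding RNA list (0.712, low). For neuron replicate 3 these were Nos1 (0.7993, high), Mki67 (0.7118, high), Nes (0.7977, high), the mean of the dividing cell list (0.7787, high) and the mean of the immediate early list (0.8382, high). For neuron replicate 4 these were Klf1 (0.7274, low) and Cacna1g (0.7357, high). For neuron replicate 5 these were Pde1b (0.724, low), Tac1 (0.7785, low), Vtn (0.9076, high), Fosb (0.7314, low), Hspa1a (0.8854, low) and Vamp1 (0.868, high). For tissue replicate 2 these were Syp (0.7905, high), Rxrg (0.737, high), Isl1 (0.7489, low), Penk (0.7302, low), Lhx8 (0.8901, low), Lhx6 (0.8028, high), Nts (0.8497, low), Irf7 (0.7391, high), Psmb8 (0.8088, low) and the mean of the interferon list (0.7543, low). For tissue replicate 3 this was Cdca8 (0.8382, low). For tissue replicate 4 this was the mean of the newborn neuron list (0.7304, low). For tissue replicate 5 these were Slc6a3 (0.7625, high) and Car2 (0.7104, low).

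The difference between neurons and tissue was not the same under both agents for 7 genes, by an interaction term in limma (adjusted p of 0.0459 to 0.0466 for all but Pdk4). Dexamethasone minus saline, it was Aldoc at -1.759, Cdkn1a at -1.807, Fads2 at -1.759, Fam20a at -1.381, Ms4a6d at -1.661, Pdk4 at -1.636, Slc7a10 at -1.997. The part of astrocyte RNA in these differences was not tested.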

How the results depend on the processing

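Over 20 alternatives 276 genes were followed, of which 203 were called. Of these 203, 156 kept their call and direction and 35 lost it in at least one of the 10 fits without 1 array. Among the uncalled genes followed, 23 gained a call. Not every gene named above was followed. Lcn2, Prtn3, S100a8, Nr2e1, Trf, Xist and the genes with a called difference between agents, other than Aldoc, were among those left out. No list median of 44 reversed. A change of sign counted as a reversal only where the main median was larger in size than the SD of the within-chip medians. A list with a median near 0, such as that of the direct pathway, could therefore hardly count as reversed. The genes called under saline numbered 2876 with median scaling and 4084 with the 10 arrays alone in the fit. Median scaling gave 658 genes higher and 4 general neuron genes lower. Without 1 array, 8 to 14 medium spiny genes were higher and 4 to 6 general neuron genes lower. Mobp reversed to -1.09 with the mean of all its detected probes; the cause was not tested. With the replicate block (chip), 3693 genes were called under saline, 3394 of them shared with the fit without it, 3157 under dexamethasone and 5 for the difference between agents. Among the genes followed, the block ended the calls of Syt1, Stmn3, Gnal and Th and added Oxt and Robo2. Bright probes near the scanner limit compress differences, and dim ones near the receptor probes give only bounds. Whether a background was subtracted before deposit is not stated.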

Other observations

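Probes of a gene did not always give differences of the same size. With the mean of all detected probes in place of the brightest, 8 called genes among those followed lost their call. They were Syt1, Thy1, Phactr1, Tubb2b, Slc4a4, Rims1, Gria4 and Scn3a. For Kif5a the other probes differed by 2.57 and 2.55 between neurons and tissue, above the 1.69 of the brightest. The parts of the transcripts these probes read were not compared here.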
